A study of Mus musculus with 2 samples.

Results

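The 10 genes described here encode costimulatory members of the tumour necrosis factor (TNF) receptor superfamily and their ligands, 5 receptors and 5 ligands of the 27998 genes in the table. They were taken by name as Tnfrsf4, Tnfrsf18, Tnfrsf9, Cd27 and Cd40 among the receptors and Tnfsf4, Tnfsf9, Cd40lg, Tnfsf8 and Tnfsf11 among the ligands. All 10 were present, each under a single identifier, and none was used to sort cells into types. Their transcripts were read in T cells, regulatory T (Treg) cells, natural killer (NK) cells and dendritic cells from subcutaneous tumours of CD94-KO mice and of WT mice, both C57BL/6J and 6 to 8 weeks old. Klrd1 encodes CD94, which joins NKG2 proteins in receptors of NK cells and some T cells that recognise Qa-1. Live CD45+ cells were sorted with an antibody to CD45 and 7AAD, and 1 droplet-based 3′ RNA library per genotype was made, each derived from 5 tumour-bearing mice with no map from cells to animals. With 1 library per genotype no difference could be tested, and every ratio below describes this pair of libraries. The tumour line, and the part of Klrd1 that was deleted, were not given in the sources used here.

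These receptors sit on lymphocytes or antigen-presenting cells and, when their trimeric ligands bind, recruit TRAF adaptor proteins that switch on NF-kB and survival genes. OX40 (Tnfrsf4), GITR (Tnfrsf18) and 4-1BB (Tnfrsf9) are induced on activated T cells and are abundant on Treg cells in tumours, 4-1BB is also induced on NK cells, and CD27 (Cd27) is found on resting and memory T cells and on immature NK cells. CD40 (Cd40), on dendritic cells, macrophages and B cells, receives help from CD40 ligand (Cd40lg) on CD4 T cells, while dendritic cells carry OX40 ligand (Tnfsf4) and 4-1BB ligand (Tnfsf9).

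Cells were gated on raw counts of unique molecular identifiers (UMIs) of marker genes, and the gates held 1003 CD94-KO and 901 WT cells of the T, Treg, NK and dendritic types. There were 50 CD94-KO and 86 WT CD8 T cells, 55 and 65 CD4 T cells, 190 and 205 other T cells, 34 and 64 Treg cells, and 331 and 250 NK cells. Other T cells had Cd3 transcripts but fell in none of the CD8 T, CD4 T and Treg gates. Besides cells with neither Cd4 nor Cd8 transcripts, that gate took cells with both, and cells with both Foxp3 and Cd8 transcripts. The dendritic gates held 136 CD94-KO and 93 WT mature regulatory dendritic cells (mregDC), 106 and 59 type 2 conventional dendritic cells (cDC2), 60 and 31 type 1 cells (cDC1), and 41 and 48 plasmacytoid cells (pDC). UMIs were summed over each gate and given as counts per 1000000 UMIs of the gate (CPM), in which deep cells weigh more than shallow ones. Brackets hold exact 95% intervals that cover counting error only. A gene counted as measured with at least 20 UMIs over both libraries, and as past the fold where its CPM differed at least 1.5-fold. Levels are compared within a gene and never between genes.

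Markers that were not used to gate stood highest in their own gate for most cell types, but not for conventional dendritic cells or CD8 T cells. Summed over 5 Treg genes (Il2ra, Ctla4, Ikzf2, Ikzf4 and Ccr8), Treg cells stood at 3502 CPM in CD94-KO against 2657 CPM in WT, above all other gates. NK markers stood at 11176 and 9823 CPM in NK cells and mregDC markers at 3259 and 3378 CPM in mregDC, again above all other gates. The cDC1 list did not single out the cDC1 gate, which stood at 1674 and 2153 CPM in CD94-KO and WT, below the 1825 and 2266 CPM of pDC, and the cDC2 list stood higher in WT cDC1 (1755 CPM) than in WT cDC2 (1372 CPM). The CD8 T list (Ccl5, Nkg7, Eomes and the gate gene Cd8a) stood at 6452 CPM in CD94-KO CD8 T cells against 5005 CPM in WT CD8 T cells, and at 4228 and 5148 CPM in mregDC. Klrd1 itself was at 331 CPM in CD94-KO NK cells and 685 CPM in WT NK cells (ratio 0.483 [0.446 to 0.523]) but at 391 and 388 CPM in CD8 T cells. Klrd1 was thus still detected in the library labelled CD94-KO, and 3′ tags check a label only if that end of the gene was deleted, so CD94-KO and WT name the libraries by their labels alone. Kept cells had a median of 7799 UMIs in CD94-KO and 4768.5 UMIs in WT, and 8 cell barcodes occurred in both libraries.

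**Figure D1:**
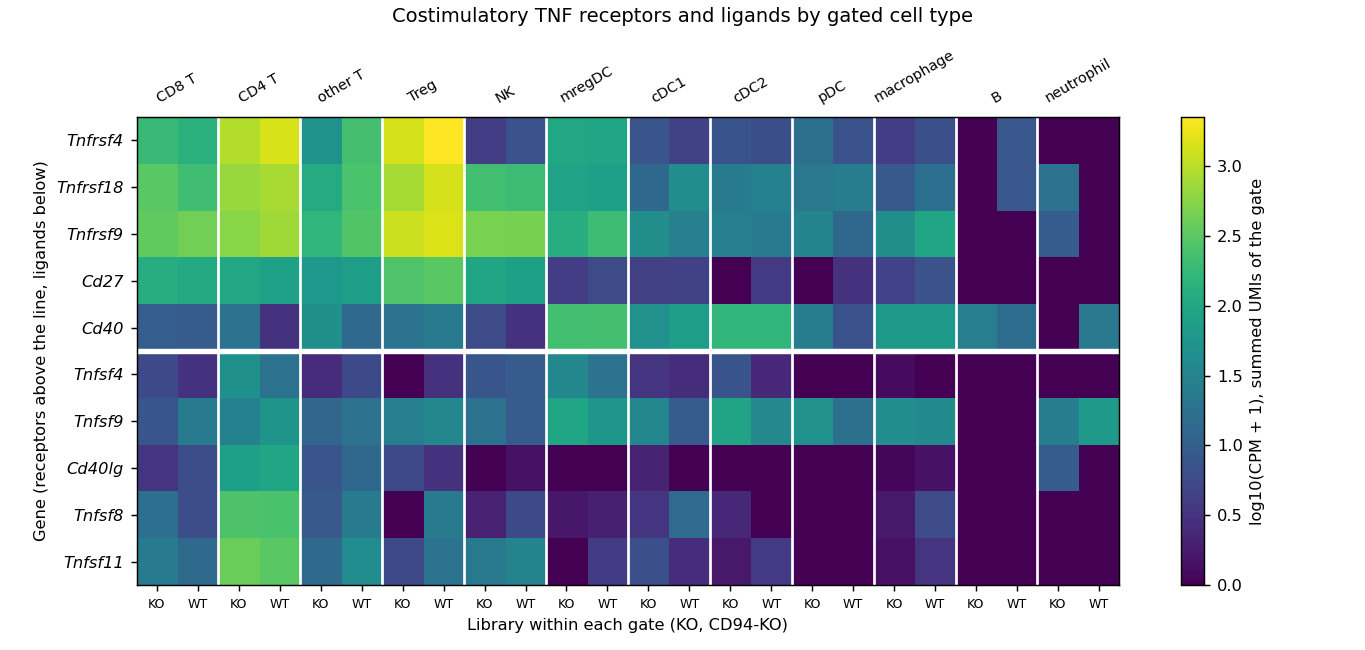
Level of each of the 10 genes, as log10(CPM + 1) of the summed UMIs of a gate, in 12 gates (columns in pairs, CD94-KO left of WT) with receptors above the thick horizontal white line and ligands below it. Tnfrsf4, Tnfrsf18 and Tnfrsf9 are highest in Treg and CD4 T cells, Cd40 in mregDC and cDC2, and Cd40lg, Tnfsf8 and Tnfsf11 in CD4 T cells, in both libraries.

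The map of levels by gate shows where each gene was transcribed, and the highest gate was the same in both libraries for most of the genes. Tnfrsf4, Tnfrsf18 and Tnfrsf9 had their highest level in Treg cells and the next in CD4 T cells, though the intervals of Tnfrsf9 in CD4 T cells (499 to 653 CPM) and NK cells (455 to 506 CPM) overlapped in CD94-KO, as did those of Tnfrsf18 in Treg cells (684 to 922 CPM) and CD4 T cells (608 to 777 CPM). Cd27 was also highest in Treg cells. Cd40 was highest in mregDC, then cDC2. Among the ligands, Tnfsf8, Tnfsf11 and Cd40lg were highest in CD4 T cells, Tnfsf4 was highest in CD4 T cells in CD94-KO but in mregDC in WT, with overlapping intervals between those gates in each library, and Tnfsf9, among lymphocyte and dendritic gates, was highest in mregDC, with intervals that overlapped those of cDC2 in CD94-KO and of CD4 T cells in WT.

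In Treg cells, where OX40, GITR and 4-1BB transcripts stood highest, those of OX40 and GITR were lower in CD94-KO. Of 5 genes measured in Treg cells, 0 were higher and 2 were lower past the fold, beside 15.3% of all 4473 genes higher and 13.3% lower. The median difference of the measured members was -0.31 in log2(CPM + 5), CD94-KO minus WT, beside 0.04 over all genes tested. Tnfrsf4 stood at 1375 CPM [1226 to 1537] in CD94-KO Treg cells, from 309 UMIs, and at 2253 CPM [2123 to 2389] in WT Treg cells, from 1122 UMIs, a ratio of 0.610 [0.536 to 0.693]. For Tnfrsf18 the values were 797 CPM [684 to 922] in CD94-KO and 1354 CPM [1253 to 1460] in WT, a ratio of 0.588 [0.496 to 0.695]. Neither pair of intervals overlapped. Tnfrsf9, the receptor used to mark recently stimulated T cells, was at 1197 CPM in CD94-KO against 1488 CPM in WT (ratio 0.804 [0.697 to 0.926]), under the fold. Cd27 was at 271 CPM in CD94-KO against 311 CPM in WT (ratio 0.872 [0.637 to 1.18]), with overlapping intervals. The last gene measured there, Tnfsf9, stood at 26.7 and 34.1 CPM from 6 and 17 UMIs. Tnfrsf18 stayed lower past the fold under 9 of 9 alternatives, between 0.531 and 0.661. Tnfrsf4 did so under 9 of 10, between 0.551 and 0.642, and was at 0.738 when summed with its neighbour Sdf4, described below. Beside this, macrophage markers summed to 1513 CPM in CD94-KO against 1277 CPM in WT Treg cells and the independent Treg markers to 3502 and 2657 CPM. Other lists were lower in CD94-KO: T cell markers at 1749 and 2109 CPM, NK markers at 307 and 570 CPM and cDC2 markers at 22.2 and 177 CPM. The part of these lists in the difference was not tested.

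**Figure D2:**
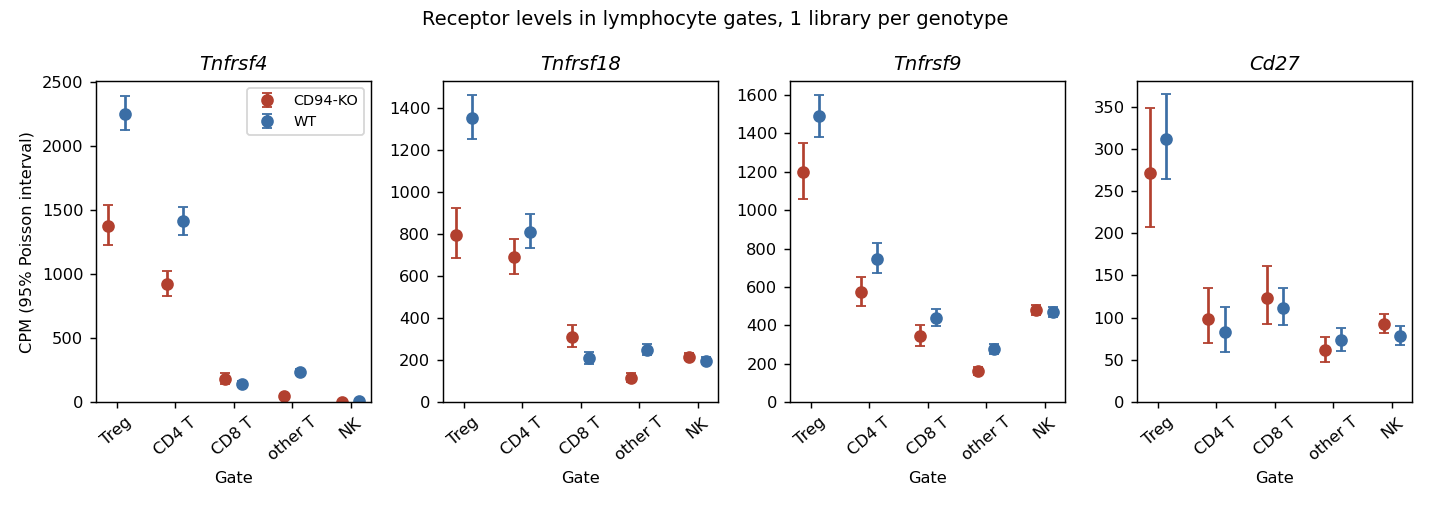
CPM of Tnfrsf4, Tnfrsf18, Tnfrsf9 and Cd27 in 5 lymphocyte gates, with CD94-KO (red) left of WT (blue) and bars for 95% Poisson intervals of counting error, 1 library per genotype. In Treg cells Tnfrsf4 stood at 1375 and 2253 CPM and Tnfrsf18 at 797 and 1354 CPM, while in NK cells Tnfrsf9 stood at 479.9 and 469 CPM.

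Single cells spread widely within each library. Per 10000 UMIs of the cell, Tnfrsf4 in the 34 CD94-KO Treg cells had a median of 9.62, with quartiles of 6.83 and 20.01 and a highest value of 54.8. In the 64 WT Treg cells the median was 18.8, the quartiles 10.8 and 31.2 and the highest value 98.7. Tnfrsf18 had medians of 7.84 in CD94-KO and 13.2 in WT Treg cells, and Tnfrsf9 8.61 and 13.99. The cells of both libraries overlapped over most of their range for all 3 receptors. Most Treg cells held several receptor transcripts at once: Tnfrsf4 and Tnfrsf18 were detected together in 27 of 34 CD94-KO and 61 of 64 WT Treg cells, and all 4 of Tnfrsf4, Tnfrsf18, Tnfrsf9 and Cd27 in 21 (61.8%) and 44 (68.8%). A Tnfrsf4 UMI was found in 82.4% of CD94-KO and 95.3% of WT Treg cells, whose median depth was 4935 and 6153.5 UMIs. Macrophages, taken as cells that should lack it, held one in 3.25% and 7.45% of cells, though deeper, with medians of 11759 and 13491.5 UMIs. After thinning to 1000 UMIs per cell (0 CD94-KO and 2 WT Treg cells were shallower and left out) the Treg shares were 61.8% [43.6 to 77.8] and 82.3% [70.5 to 90.8], against 0.362% and 1.06% in macrophages.

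**Figure D3:**
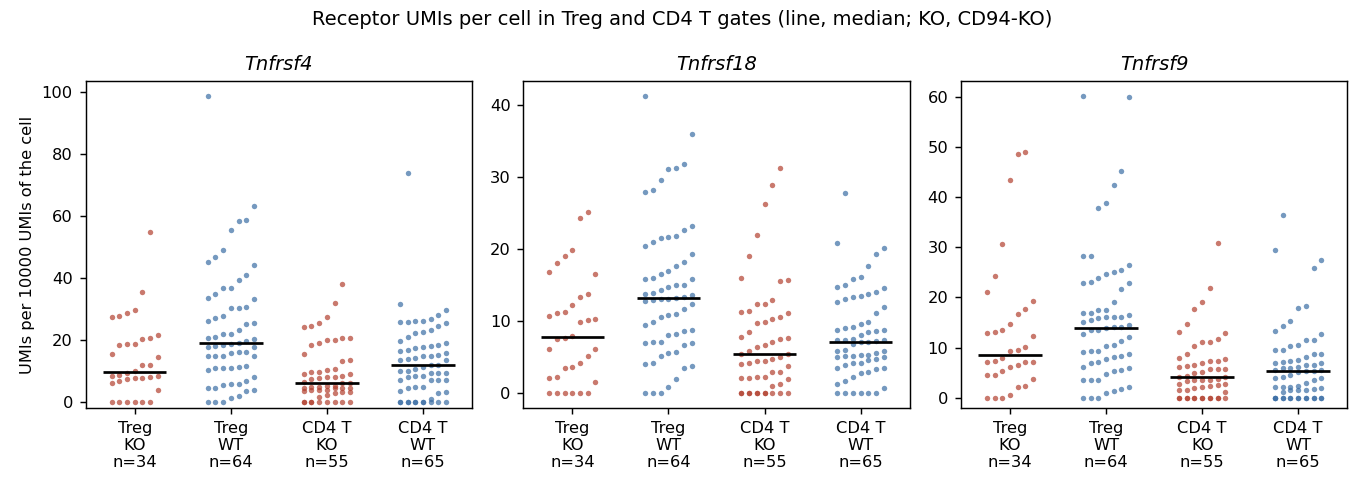
UMIs of Tnfrsf4, Tnfrsf18 and Tnfrsf9 per 10000 UMIs of each cell in Treg and CD4 T cells, CD94-KO left of WT, with 1 point per cell and a line at the median. Tnfrsf4 medians were 9.62 in CD94-KO and 18.8 in WT Treg cells, and the points of the libraries overlap.

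Tnfrsf4 and Tnfrsf18 are neighbours. In GRCm38 (mm10, GENCODE M21) Tnfrsf4 lies at chr4:156013843-156016612 with 7 exons, and Tnfrsf18 at chr4:156026164-156028895 with 5 exons, both on the plus strand, 9551 bases apart and with 0 protein-coding genes between them. Tnfrsf9 lies on the same chromosome at chr4:150914562-150946102, also on the plus strand, where it overlaps Camta1, and Gm16008 overlaps Tnfrsf18. The sources used here do not say whether counting used strand, and without it reads of overlapping partners cannot be told apart. Upstream sequence of these receptors is shown because the 3 receptors were detected in the same Treg cells, from RefSeq (GRCm38.p6, plus strand, 5′ to 3′), leaving out bases that GENCODE places in an untranslated region. RefSeq places the start of Tnfrsf4 upstream of GENCODE's. Its run of 84 bases fills the stretch from the gene before it to the RefSeq start, and stops short of the GENCODE start. The runs cover chr4:156013611-156013694 for Tnfrsf4, chr4:156026072-156026163 for Tnfrsf18 and chr4:150919905-150920154 for the first RefSeq start of Tnfrsf9, which lies within the Tnfrsf9 gene as GENCODE draws it. Capitals mark GGAAA or its reverse complement TTTCC, of which the Tnfrsf4 run holds 0.
Tnfrsf4: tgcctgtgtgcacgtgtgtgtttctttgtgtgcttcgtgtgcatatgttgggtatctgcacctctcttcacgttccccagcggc
Tnfrsf18: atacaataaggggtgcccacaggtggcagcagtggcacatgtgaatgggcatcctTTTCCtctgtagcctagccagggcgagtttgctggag
Tnfrsf9: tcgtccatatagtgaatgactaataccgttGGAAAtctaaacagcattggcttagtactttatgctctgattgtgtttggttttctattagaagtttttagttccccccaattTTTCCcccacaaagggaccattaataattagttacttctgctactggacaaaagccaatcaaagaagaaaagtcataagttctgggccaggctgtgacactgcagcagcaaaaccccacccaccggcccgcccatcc

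Of the 10 genes, 6 had a RefSeq promoter entry (Tnfrsf4, Tnfrsf18, Tnfrsf9, Cd27, Tnfsf8 and Tnfsf11), with 7 starts. Over the whole 250 bases before each start and on both strands, GGAAA, the core of sites bound by NFAT and by ETS factors, was found in 7 of 7, and in 55.6% of 32851 mouse promoters of that length. TGANTCA, the AP-1 site, was found before 1 of the 7, as TGAGTCA at 15 to 9 bases before the second RefSeq start of Tnfrsf9, and in 6.75% of all promoters. GGGANTTTC, an NF-kB form, was found in 0 of the 7 and in 0.941% of all promoters. Other forms of the NF-kB site were not searched, so this 0 does not show that such sites are absent. A match is a string in this window and nothing more.

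The gene just upstream of Tnfrsf4 shared its pattern. Sdf4, which encodes a calcium-binding protein of the Golgi, ends 232 bases before Tnfrsf4 on the same strand (chr4:155992872-156013610). Across the 24 gate sums (12 gates in 2 libraries), Sdf4 was the gene most alike to Tnfrsf4, with Pearson r 0.94 of log2(CPM + 5). Sdf4 stood at 1117 CPM in CD94-KO against 1123 CPM in WT Treg cells (ratio 0.995 [0.854 to 1.16]) and at 881 and 1256 CPM in CD4 T cells, against 148 and 138 CPM in NK cells and 102 and 102 CPM in macrophages. Both genes were detected in 26 of 34 CD94-KO and 57 of 64 WT Treg cells. Counts of both genes together came to 2492 CPM in CD94-KO Treg cells against 3376 CPM in WT Treg cells, a ratio of 0.738 [0.670 to 0.813], lower in CD94-KO but under the fold. How reads that fall between these genes were assigned was not tested.

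**Figure D4:**
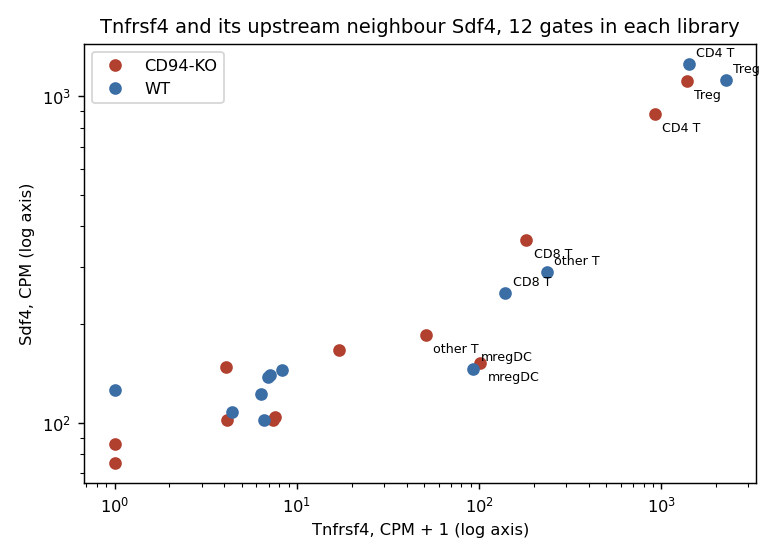
Sdf4 in CPM against Tnfrsf4 in CPM + 1, both on log axes, with 1 point per gate and library (CD94-KO red, WT blue). The 4 points of Treg and CD4 T cells lie highest on both axes, with Sdf4 between 881 and 1256 CPM.

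In CD4 T cells OX40 transcripts were lower in CD94-KO and OX40 ligand transcripts higher, the second on few UMIs. Of 9 genes measured, 1 was higher and 2 were lower past the fold, beside 18.4% of all genes higher and 10.8% lower. Tnfrsf4 stood at 923 CPM [829 to 1024] in CD94-KO and 1412 CPM [1308 to 1522] in WT, a ratio of 0.654 [0.573 to 0.744]. It kept the fold in 4 of 10 alternatives, and was at 0.816 with at most 2 macrophage marker UMIs allowed per cell. Macrophage markers summed to 1549 CPM in CD94-KO against 575 CPM in WT CD4 T cells. Tnfrsf18 was at 689 CPM in CD94-KO against 809.6 CPM in WT (ratio 0.851), Tnfrsf9 at 572 and 747 CPM (ratio 0.765), and Cd27 at 98.8 and 83.0 CPM. The Cd27 ratio of 1.19 was 0.818 with no macrophage limit and 2.09 where all cells had equal weight. Tnfsf4 was at 46.8 CPM from 18 UMIs in 5 CD94-KO cells and 16.6 CPM from 8 UMIs in 4 WT cells, a ratio of 2.82 [1.17 to 7.49]. Tnfsf9 was at 28.6 CPM in CD94-KO against 54.0 CPM in WT (ratio 0.530 [0.236 to 1.11]), and the ratio was 0.946 at the stricter macrophage limit.

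CD4 T cells also had the highest levels of the ligands of CD40, CD30 and RANK. Cd40lg, the signal that licenses dendritic cells, stood at 78.0 CPM [52.6 to 111] in CD94-KO and 95.5 CPM [69.9 to 127] in WT CD4 T cells. It had at most 1 UMI in the NK gate and at most 1 over all dendritic gates, in either library. Tnfsf8, the CD30 ligand, stood at 260.0 CPM in CD94-KO against 247 CPM in WT (ratio 1.05 [0.798 to 1.38]). Tnfsf11, the RANK ligand, stood at 403 CPM in CD94-KO against 311 CPM in WT (ratio 1.29 [1.03 to 1.63]). None of these 3 passed the fold. A few cells held most of the signal: the 10 CD4 T cells with the most UMIs gave 87.0% and 87.4% of Tnfsf8 UMIs and 81.9% and 73.3% of Tnfsf11 UMIs in CD94-KO and WT. Tnfsf8 was detected in 20 of 55 CD94-KO and 18 of 65 WT CD4 T cells, and 14 of these CD94-KO and 12 of these WT cells also held Tnfsf11. With cells thinned to 1000 UMIs, Tnfsf11 was found in 14 of 55 CD94-KO and 13 of 65 WT CD4 T cells, and in 0.181% and 0.355% of macrophages.

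In CD8 T cells no receptor was past the fold in summed CPM. Of 6 genes measured, 1 was higher and 1 was lower, beside 14.4% of all genes higher and 12.8% lower. Tnfrsf18 was at 311 CPM [261 to 368] in CD94-KO and 209 CPM [181 to 240] in WT, a ratio of 1.49 just under the fold. Tnfrsf9 was at 343 CPM in CD94-KO against 439 CPM in WT (ratio 0.780 [0.643 to 0.942]), Tnfrsf4 at 181 and 139 CPM, and Cd27 at 123 and 112 CPM. The gene that was higher, Tnfsf11, had 10 and 13 UMIs (22.9 and 13.4 CPM) and was past the fold in 6 of 9 alternatives. Tnfsf9, the gene that was lower, had 3 UMIs in CD94-KO and 22 in WT (6.86 and 22.7 CPM, ratio 0.302 [0.0578 to 1.004]), and with no macrophage limit the ratio was 1.03. Macrophage markers in CD8 T cells summed to 297 CPM in CD94-KO against 1241 CPM in WT and NK markers to 2164 and 1096 CPM, and their part in these values was not tested. With each cell weighed the same Tnfrsf9 was at 0.582, past the fold.

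In the other T cells most of the measured genes were lower in CD94-KO, and the makeup of the gate differed too. Of 9 genes measured, 1 was higher and 6 were lower past the fold, beside 12.8% of all genes higher and 11.7% lower. Tnfrsf4 stood at 50.3 CPM [38.4 to 64.7] in CD94-KO and 234 CPM [209.98 to 259] in WT, a ratio of 0.215 [0.161 to 0.283]. Tnfrsf18 was at 116 CPM in CD94-KO against 249.9 CPM in WT (ratio 0.462 [0.378 to 0.563]) and Tnfrsf9 at 161 and 275 CPM (ratio 0.585 [0.491 to 0.696]). Tnfsf11 was at 13.4 and 39.9 CPM, Tnfsf8 at 7.54 and 23.6 CPM and Cd40lg at 6.70 and 12.4 CPM. A UMI of Il17a or Cd163l1, genes of interleukin-17 producing gamma-delta T cells, was found in 114 of 190 CD94-KO cells (60.0% [52.7 to 67.0]) and 65 of 205 WT cells (31.7% [25.4 to 38.6]). Without those cells the ratio was 0.301 for Tnfrsf4, 0.620 for Tnfrsf18 and 0.466 for Tnfrsf9, all 3 still lower past the fold. Cd40lg then stood at a ratio of 1.01 and Cd27 at 1.25, against 0.834 for Cd27 with all cells of the gate. Cells under 1000 UMIs numbered 4 of 190 in CD94-KO and 25 of 205 in WT. At a minimum of 1000 UMIs, with doublets scored anew, the Tnfrsf4 ratio was 0.158. At a macrophage limit of 2 UMIs Tnfrsf9 was at 0.700. Summed with Sdf4, Tnfrsf4 was at a ratio of 0.452, and with no macrophage limit at 0.338. With each cell weighed the same Tnfsf11 was at 0.615 and Tnfsf9, at 0.689 in summed CPM, was at 0.325. Cd40 was at 46.1 CPM in CD94-KO against 13.1 CPM in WT, but its 55 CD94-KO UMIs came from 10 of 190 cells, 41 of them from 1 cell, its ratio of 3.52 lay between 1.87 and 7.43 over the alternatives, and the independent mregDC markers summed to 361 CPM in CD94-KO against 239 CPM in WT in that gate.

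Pooled over CD8, CD4 and other T cells, all 10 genes were measured, with 2 higher and 2 lower past the fold, beside 10.0% of all genes higher and 7.66% lower. The median difference of the 10 was -0.16 in log2(CPM + 5), beside 0.05 over all genes tested. Tnfrsf4 (245 CPM in CD94-KO against 393 CPM in WT, ratio 0.623) and Tnfsf9 (13.9 and 24.9 CPM, ratio 0.559 [0.348 to 0.874]) were lower. With Il17a or Cd163l1 cells left out the Tnfrsf4 ratio was 0.762 and, summed with Sdf4, 0.729, neither past the fold. Cd40 (32.7 and 9.74 CPM, 41 of 66 CD94-KO UMIs in 1 cell) and Tnfsf4 (10.9 and 5.71 CPM, from 22 and 17 UMIs) were higher. Tnfsf4 was at a ratio of 1.12 with each cell weighed the same, and Tnfsf9 at 0.808 with no macrophage limit. The Cd40 ratio of 3.36 lay between 1.71 and 7.63 over the alternatives. Tnfrsf9 was at a ratio of 0.689, under the fold, and at 0.653 under TMM scaling, past it.

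NK cells, on which CD94 is normally found, had close to equal levels of Tnfrsf9, Tnfrsf18 and Cd27 in both libraries. Tnfrsf9 stood at 479.9 CPM [455 to 506] in CD94-KO and 469 CPM [442 to 496] in WT, a ratio of 1.02 [0.947 to 1.11]. Tnfrsf18 stood at 216 CPM [199 to 233] in CD94-KO and 196 CPM [179.5 to 214] in WT (ratio 1.10 [0.975 to 1.24]), and Cd27 at 92.5 and 78.7 CPM (ratio 1.18 [0.976 to 1.42]). All 3 intervals lay inside 1.5-fold in either direction, for counting error alone, and the spread between animals is unknown. Of 7 genes measured in NK cells, 1 was higher and 1 was lower past the fold, beside 11.6% of all genes higher and 4.31% lower, and the median difference of the 7 was 0.03 beside 0.09 over all genes. Tnfsf9 was higher, at 17.6 CPM from 51 UMIs in CD94-KO and 8.30 CPM from 21 UMIs in WT (ratio 2.12 [1.25 to 3.71]). With at most 2 macrophage marker UMIs per cell the ratio was 1.19. In NK cells cDC2 markers summed to 74.9 CPM in CD94-KO against 17.0 CPM in WT, mregDC markers to 118 and 80.6 CPM, and macrophage markers to 289 and 379 CPM, and their part in the difference was not tested. Tnfrsf4 was rare, with 9 UMIs in CD94-KO and 15 in WT, and counted as lower (ratio 0.524 [0.202 to 1.28]). At 3.11 and 5.93 CPM it was close to the 3.11 and 5.60 CPM of macrophages. Tnfsf11 was at 21.4 and 30.4 CPM (ratio 0.703), under the fold but lower past it in 5 of 9 alternatives. Tnfsf4 was at 6.90 and 8.30 CPM (ratio 0.832), and at 0.467 with each cell weighed the same. Tnfrsf18 and Tnfrsf9 were detected together in 158 of 331 CD94-KO and 136 of 250 WT NK cells, whose median depths were 6566 and 7947.5 UMIs.

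In dendritic cells 4-1BB ligand transcripts were higher in CD94-KO in each gate, while CD40 transcripts were level. Of 6 genes measured over all dendritic gates, 2 were higher and 0 were lower past the fold, beside 9.56% of all genes higher and 6.35% lower. The median difference of the 6 was 0.08 in log2(CPM + 5), beside 0.02 over all genes. Tnfsf9 stood at 74.5 CPM [66.7 to 83.0] from 330 UMIs in CD94-KO and 35.7 CPM [29.1 to 43.3] from 102 UMIs in WT (ratio 2.09 [1.67 to 2.64]). Tnfsf4 stood at 15.6 CPM from 69 UMIs in CD94-KO and 7.34 CPM from 21 UMIs in WT (ratio 2.12 [1.29 to 3.64]). With each cell weighed the same these ratios were 1.45 and 1.17, both under the fold, and that of Tnfrsf9 was 0.551. Cd40 stood at 142 CPM [131 to 153] in CD94-KO and 142 CPM [129 to 157] in WT, a ratio of 0.995 [0.877 to 1.13]. Tnfrsf4, Tnfrsf18 and Tnfrsf9 were at ratios of 1.13, 0.883 and 0.744.

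**Figure D5:**
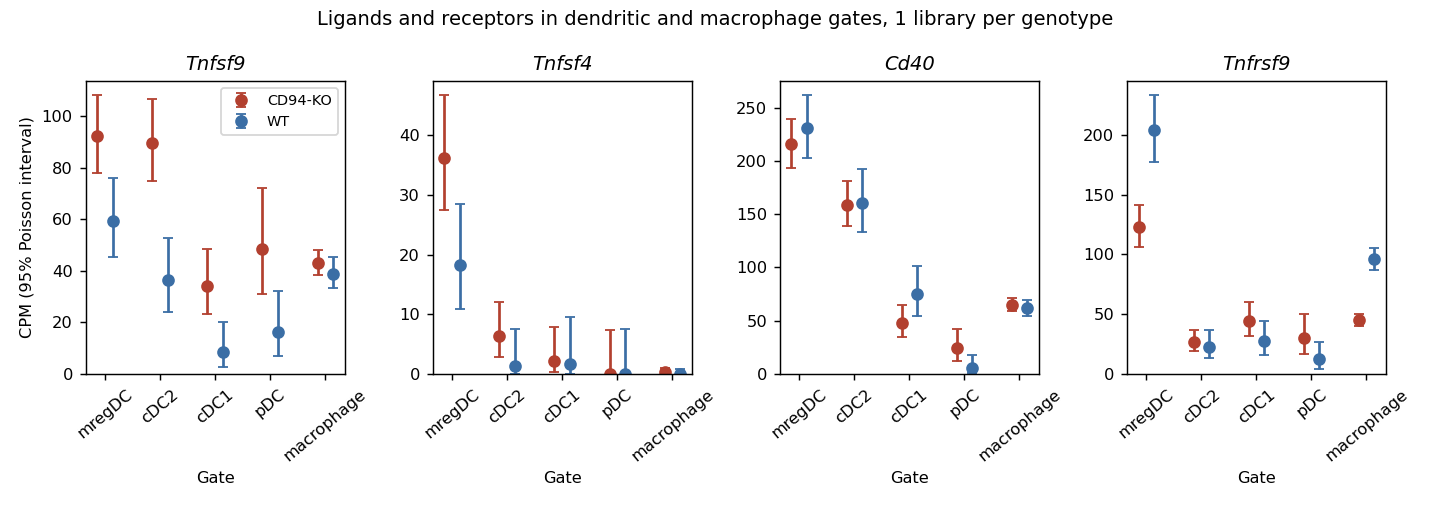
CPM of Tnfsf9, Tnfsf4, Cd40 and Tnfrsf9 in 4 dendritic gates and in macrophages, CD94-KO (red) left of WT (blue), with bars for 95% Poisson intervals of counting error, 1 library per genotype. Tnfsf9 is higher in CD94-KO in all 4 dendritic gates and stands at 43.2 and 39.0 CPM in macrophages.

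Mature regulatory dendritic cells carry Ccr7 and Fscn1 and are the stage at which tumour dendritic cells display most costimulatory ligands. Of 6 genes measured in them, 2 were higher and 1 was lower past the fold, beside 15.4% of all genes higher and 7.18% lower. Tnfsf9 was at 92.3 CPM [78.0 to 108] in CD94-KO and 59.4 CPM [45.5 to 76.1] in WT (ratio 1.55), and Tnfsf4 at 36.2 CPM [27.5 to 46.7] and 18.2 CPM [10.96 to 28.4] (ratio 1.99 [1.17 to 3.53]). With each cell weighed the same the ratios were 1.06 and 1.04, and under TMM scaling that of Tnfsf9 was 1.47. The receptor Tnfrsf9 went the other way, at 123 CPM [106 to 141] in CD94-KO and 204 CPM [178 to 233] in WT (ratio 0.602 [0.493 to 0.734], or 0.693 without doublet removal). Cd40 was at 216 CPM in CD94-KO against 231 CPM in WT, Tnfrsf4 at 100.4 and 92.0 CPM, and Tnfrsf18 at 84.2 and 77.6 CPM. Fibroblast markers summed to 1010.1 CPM in CD94-KO against 226 CPM in WT mregDC, and 7 of 136 and 4 of 93 cells held over 2 collagen UMIs. Without such cells the ratio was 1.41 for Tnfsf9, under the fold, 1.79 for Tnfsf4 and 0.540 for Tnfrsf9. Tnfsf4 was detected in 31 CD94-KO and 13 WT mregDC, and 27 of these CD94-KO and 9 of these WT cells also held Cd40.

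The other dendritic gates were smaller. In cDC2, 1 of 4 measured genes was higher and 0 were lower, beside 12.6% of all genes higher and 7.49% lower. That gene was Tnfsf9, at 89.6 CPM [74.7 to 107] in CD94-KO and 36.4 CPM [23.99 to 53.0] in WT (ratio 2.46 [1.62 to 3.88]), while Cd40 was at 159 and 160.4 CPM. In cDC1, 2 of 4 were higher and 2 lower, beside 18.0% and 9.52%. Tnfsf9 (34.1 CPM from 31 UMIs in CD94-KO and 8.58 CPM from 5 UMIs in WT) and Tnfrsf9 (43.9 and 27.4 CPM) were higher, and Cd40 (48.3 and 75.5 CPM, ratio 0.640 [0.412 to 0.995]) and Tnfrsf18 (12.1 and 42.9 CPM, ratio 0.282 [0.125 to 0.594]) were lower. In the cDC1 gate cDC2 markers summed to 699.7 CPM in CD94-KO against 1755 CPM in WT, and their part was not tested. In pDC, 2 of 3 were higher and 0 lower, beside 12.2% and 12.5%. These were Tnfsf9, at 48.4 CPM from 24 UMIs in CD94-KO and 16.3 CPM from 8 UMIs in WT, and Tnfrsf9, from 15 and 6 UMIs, with a ratio of 2.48 that was 0.758 at a minimum of 1000 UMIs per cell. With 1 more marker UMI asked of each cell the Tnfsf9 ratio in pDC was 1.69, against 2.98. In the pDC gate mregDC markers summed to 294 CPM in CD94-KO against 95.5 CPM in WT, cDC2 markers to 248 and 91.4 CPM and macrophage markers to 1844 and 1160.4 CPM, and their part was not tested. In cDC1 the Tnfrsf9 ratio of 1.60 was 1.14 with 1 more marker UMI and 5.74 at a minimum of 1000 UMIs. At that minimum doublets were scored anew, so other cells could be left out. Of cDC1 cells, 0 in either library had under 1000 UMIs, and of pDC 0 in CD94-KO and 1 in WT. Shares of cells thinned to 1000 UMIs with a Tnfsf9 UMI were low, 6.14% of CD94-KO and 3.91% of WT dendritic cells, with intervals that overlapped those of macrophages (4.34% and 3.19%).

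Macrophages held less of several receptor transcripts in CD94-KO, at levels far below those in Treg cells, but not of Cd40. Cd40 was at 65.1 CPM in CD94-KO against 61.9 CPM in WT macrophages (ratio 1.05 [0.906 to 1.23]), and the ligand Tnfsf9 at 43.2 and 39.0 CPM (ratio 1.11). Tnfrsf9 was at 45.0 CPM [40.2 to 50.1] in CD94-KO and 96.2 CPM [87.3 to 106] in WT macrophages, Tnfrsf18 at 7.72 and 15.9 CPM and Cd27 at 3.66 and 6.28 CPM. T cell markers summed to 16.7 CPM in CD94-KO against 27.3 CPM in WT macrophages, and their part in these values was not tested.

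Of the binding partners outside the 10 genes, Cd70 and Tnfrsf11a were measured. Cd70, the CD27 ligand, was at 32.4 CPM in CD94-KO against 22.0 CPM in WT mregDC (ratio 1.47 [0.885 to 2.52]) and at 6.94 and 13.1 CPM in T cells (ratio 0.530 [0.266 to 0.998]). Tnfrsf11a, which encodes RANK, was at 44.3 CPM in CD94-KO against 60.4 CPM in WT mregDC (ratio 0.733 [0.515 to 1.05]), detected in 38.2% and 43.0% of these cells. Tnfsf18, the GITR ligand, had at most 1 UMI in each gate of either library, and Tnfrsf8, which encodes CD30, 11 UMIs or fewer. Other costimulatory members of the family, which pair with each other and not with the 10 genes, were Tnfrsf25, Tnfsf15, Tnfsf14 and Tnfrsf14. Tnfsf15 and Tnfrsf14 had under 20 UMIs over both libraries in each gate. Tnfrsf25, or DR3, was at 74.6 CPM in CD94-KO against 30.1 CPM in WT other T cells (ratio 2.48 [1.72 to 3.62]). Cells with an Il17a or Cd163l1 UMI made up 60.0% of that gate in CD94-KO and 31.7% in WT, and their part was not tested. In CD4 T cells the Tnfrsf25 ratio was 1.25 [0.601 to 2.61]. Tnfsf14, or LIGHT, was at 15.2 CPM from 44 UMIs in CD94-KO and 5.93 CPM from 15 UMIs in WT NK cells (ratio 2.56 [1.40 to 4.96]).

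Of 26 genes that relay or answer TNF receptor signals (TRAF adaptors, NF-kB subunits and inhibitors, and targets such as Birc3 and Icam1), 0 to 5 were higher past the fold in each T, Treg, NK and dendritic gate. In T cells 1 of 26 measured genes was higher, Icam1 at 94.2 CPM in CD94-KO against 48.7 CPM in WT, and 0 were lower. The share over all genes there was 10.0% higher. In Treg cells, beside 15.3%, 1 of 22 was higher, Chuk from 11 UMIs in each library, and 0 were lower. In NK cells 4 of 26 were higher and 0 lower, beside 11.6% of all genes higher there. These were the NF-kB subunit gene Rel, at 215 CPM in CD94-KO against 120.2 CPM in WT (ratio 1.79 [1.56 to 2.06]), and the adaptor genes Traf3, Traf5 and Traf6 (ratios 2.27, 2.51 and 1.69). In dendritic cells 0 of 26 were past the fold in either direction, beside 9.56% of all genes higher and 6.35% lower. The median differences of the list were 0.22 in T cells, 0.03 in Treg cells, 0.26 in NK cells and 0.08 in dendritic cells, beside 0.05, 0.04, 0.09 and 0.02 over all genes. Within the T and dendritic pools, 4 of 24 were higher and 0 lower in CD4 T cells (Traf6, Birc3, Cyld and Icam1, beside 18.4% of all genes higher), 4 of 25 and 0 in other T cells (Traf2, Traf6, Bcl2a1b and Icam1, beside 12.8%), and 4 of 26 and 0 in mregDC (Traf5, Traf6, Chuk and Cyld, beside 15.4%). In CD8 T cells 1 of 23 was higher (Traf2, beside 14.4%) and 1 lower (Nfkbia, beside 12.8%). In cDC1 4 of 24 were higher (Traf3, Traf6, Nfkb2 and Relb, beside 18.0%). In cDC2 2 of 24 were higher (Traf6 and Bcl2l1, beside 12.6%) and 1 lower (Traf3, beside 7.49%). In pDC 5 of 22 were higher (Map3k14, Tank, Cyld, Bcl2a1b and Bcl2a1d, beside 12.2%) and 1 lower (Birc2, beside 12.5%).

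Across the 24 gate sums, which share libraries, depths and pooled cells, the patterns paired up within the family. Tnfrsf18 and Tnfrsf9 were each other's closest gene (r 0.94), followed by Gata3 and Dgka for Tnfrsf18 and Osbpl3 and Cdk6 for Tnfrsf9. After Sdf4, Tnfrsf4 was closest to Cd5 and Sv2c. Among the T cell ligands, Tnfsf8 and Tnfsf11 (r 0.91) and Cd40lg and Tnfsf8 (r 0.88) were among each other's 3 closest, beside Lgals7 and Penk for Cd40lg, Igfbp7 for Tnfsf8, and Igfbp7 and Ccdc64 for Tnfsf11. Cd27 was closest to Tox (r 0.97), Cysltr2 and Lef1, Cd40 to Etv3 (r 0.88), Cd83 and Tmem198b, Tnfsf4 to Cd70 (r 0.84), Sgol1 and Csf2, and Tnfsf9 to Adprh (r 0.84), Arl4c and Nr4a3. With a pseudocount of 1 in place of 5, the closest gene was still Sdf4 for Tnfrsf4, and Tnfrsf18 and Tnfrsf9 for each other, but Lef1 for Cd27, Tmem131 for Cd40, Sgol1 for Tnfsf4, Themis for Cd40lg and Tnfsf11 for Tnfsf8.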

How the data were processed

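The submitters deposited raw UMI counts per gene and cell barcode. Per the file headers, Cell Ranger 5.0.0 wrote them, with barcodes not called as cells already filtered out per the labels' protocols. The submitters' processing notes list build mm10 and Seurat 4.0, the role of Seurat not given. The deposited count tables held 5175 CD94-KO barcodes (46107433 UMIs) and 5358 WT barcodes (40261366 UMIs).

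Cells were kept from 500 UMIs and 300 genes upward when mitochondrial UMIs made up less than 10%. The 4% with the highest Scrublet score (scanpy 1.11.5) per library were left out as possible doublets, leaving 4574 CD94-KO and 4388 WT cells.

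All gates used raw UMIs and the limits were 2 for Cd3d, Cd3e and Cd3g together in T cells (with 0 UMIs of Ncr1 and Klrb1c) and 2 for Ncr1 and Klrb1c in NK cells, with at most 5 macrophage marker UMIs in both. Treg cells needed Foxp3 and no Cd8a or Cd8b1, and were left out of the T pool, mregDC 3 UMIs of Ccr7 and Fscn1 with each present, pDC 3 of Siglech, Ccr9 and Cox6a2, cDC1 2 of Xcr1 and Clec9a, and cDC2 2 of Cd209a and Clec10a with Flt3 or Zbtb46. Levels carry exact Poisson intervals, shares Clopper-Pearson intervals and ratios conditional binomial intervals (scipy 1.17.1), and with 1 library per genotype there was no test. edgeR 4.0.16 gave the TMM scaling of an alternative. The computation was tested on simulated data.

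All 10 members are named, with the 3 genes most alike to each, partner genes with at least 20 UMIs and a list of 26 signalling genes. Members and lists were chosen with earlier results of these data known.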

Additional observations from a re-analysis of the deposited data

Results flagged for a closer look

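Tnfsf9, which encodes 4-1BB ligand, stood on opposite sides in different cell types. CD94-KO over WT, its ratio was 2.12 in NK cells and 2.09 in dendritic cells, both higher in CD94-KO, but 0.559 in T cells, lower in CD94-KO. This difference between cell types was not tested, since each genotype had 1 library. The T cell value rested on 28 CD94-KO and 74 WT UMIs. At a macrophage marker limit of 2 UMIs the NK ratio was 1.19, and with each cell weighed the same the dendritic ratio was 1.45. With no macrophage marker limit the T cell ratio was 0.808. Each of these kept its side of 1 but was under the fold.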

How the results depend on the processing

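No paired analysis was possible because each genotype had 1 library, and for the same reason no replicate could be left out. Of 660 alternatives of 69 single ratios, 36 crossed a ratio of 1, in 22 of the ratios. Of these 36, 31 belonged to ratios under the fold, and 5 to ratios past it. Apart from those 5, 615 stayed within the counting interval of the main ratio and 40 moved out of it. The macrophage marker limit was no part of the dendritic gates. Alternatives that changed it could therefore hardly move a dendritic ratio, and they count among the 660 and the 615 nearly by construction. On the log2 scale the 5 stood at 0.047 for Tnfsf9 in CD8 T cells with no macrophage marker limit, 0.015 for Cd40lg in other T cells without Il17a or Cd163l1 cells, 0.065 for Tnfrsf4 summed with Sdf4 in NK cells, and, for Tnfrsf9 in pDC, -0.014 without doublet removal and -0.40 at a minimum of 1000 UMIs. At that minimum doublets were scored anew, and of pDC 0 CD94-KO cells and 1 WT cell had under 1000 UMIs. In NK cells Sdf4 had 428 and 350 UMIs in CD94-KO and WT, beside 9 and 15 of Tnfrsf4. Their sum was bound to follow Sdf4 and does not test the Tnfrsf4 ratio. The alternatives without Il17a or Cd163l1 cells, without collagen cells and with Sdf4 were chosen after seeing the data. Of members past the fold, a fold of 2 left 1 in T cells (4 at 1.5-fold), 0 in Treg cells (of 2) and 1 in NK cells (of 2). With no minimum on UMIs there were 6 in Treg cells, 5 in NK cells and 6 in dendritic cells (of 2). In NK cells there were also 4 with each cell weighed the same, 4 without doublet removal, 1 at a macrophage marker limit of 2 UMIs and 5 with no such limit, and in dendritic cells 1 with each cell weighed the same. The cause was not tested, except that no minimum counts more genes by construction. TMM scaling moved all genes by -0.11 (log2) in Treg cells and -0.11 in CD8 T cells, and median-of-ratios scaling by -0.12 in CD4 T cells, -0.15 in Treg cells, -0.14 in CD8 T cells and -0.10 in NK cells, and both crossed a ratio of 1 for Tnfrsf9 in NK cells (log2 of -0.065 and -0.071) and Tnfsf8 in CD4 T cells (-0.0029 and -0.047). Genes under 20 UMIs, as most ligands outside their main gate, were beyond the reach of this depth.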
